A study of Mus musculus with 3 samples.

Results

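A group of 10 genes of fatty acid handling was followed across single cells of the mouse blastocyst, out of 23154 gene symbols counted. They are the fatty acid binding protein genes Fabp3 and Fabp5, the long-chain acyl-CoA synthetase genes Acsl3, Acsl4 and Acsl6, the lipid droplet coat gene Plin2, the stearoyl-CoA desaturase gene Scd2, the apolipoprotein gene Apoe, the lysophospholipid acyltransferase gene Mboat1 and the carnitine palmitoyltransferase gene Cpt1a. All 10 genes have a row in each count table, and all 10 passed the filter on low counts. They were proposed from earlier results of these libraries, above all from cells high and low in Krt8 and Krt18, so their differences between those cells are given as a description, without a test. All cells came from the Klf2-H2BmCherry mouse reporter line, from mCherry-positive embryos taken on embryonic day 2.5, cultured static or shaken to the blastocyst stage of embryonic day 3.5, and picked apart into single cells. The 3 libraries of 96 cell barcodes, called replicates 1 to 3, share this genotype and stage and form 1 group. Which cells were cultured static and which shaken, how many embryos gave cells, and whether the libraries came from separate cultures are not given in the labels, so no culture conditions were compared.

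Fatty acid binding proteins carry fatty acids through the watery cytosol. Acyl-CoA synthetases join a fatty acid to coenzyme A, and each member of that family prefers other fatty acids and membranes. The activated fatty acid can enter phospholipids and triglycerides, be stored in lipid droplets coated by perilipins, be desaturated by SCD enzymes, or enter mitochondria through CPT1 to be oxidised. Preimplantation mouse embryos hold lipid droplets inherited from the oocyte and oxidise fatty acids. By the blastocyst stage the outer trophectoderm (TE), a pumping epithelium that expresses the keratins Krt8 and Krt18, is separate from the inner cell mass (ICM), the source of epiblast (EPI) and primitive endoderm (PrE).

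Barcodes with counts in 2000 or more genes were taken as cells, leaving 83, 64 and 78 cells in replicates 1, 2 and 3, or 225 of 288 barcodes. Library totals were 30573711, 27610866 and 54444536 counts, and median totals per cell 286484, 345414 and 608734. Levels are CPM, the counts of a gene scaled to a common library total. Each library was cut into 3 parts of about equal cell number by Krt8+Krt18 CPM, of which the upper is called Krt-high and the lower Krt-low, which gave 27, 21 and 26 cells in each group. The lowest Krt-high cells had 1285, 2235 and 3982 CPM of Krt8+Krt18, and the highest Krt-low cells 147, 531 and 376 CPM. Counts were summed over the cells of a group in a library and divided by their total, so each gene has 3 values per group and the library is the replicate. A sum does not tell fewer cells with a transcript from less of it per cell, and values per cell are given where this matters.

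One block of cells stood apart and touches every result. In replicate 1, 22 of the 27 Krt-low cells carried barcodes 33 to 64, although those 29 cells had a median total of 295639 counts, against 285719 in the other 54 cells of the library. Markers of TE summed to 986 CPM in them and 1434 CPM in the other cells, those of EPI to 755 and 1041 CPM, and those of the oocyte to 382 and 97.4 CPM. Levels and fold changes of the 10 genes are therefore given from all cells and also without these barcodes, with groups of 18 cells drawn again from the remaining 54. Levels of other family genes and levels per length are given without them, and also with all cells where the direction turns. In the 3 libraries, 18 TE markers other than Krt8 and Krt18 summed to 2169, 5548 and 5730 CPM in Krt-high cells. In Krt-low cells they summed to 844, 777 and 526 CPM. Without the barcodes replicate 1 had 2541 CPM of them in Krt-high and 392 CPM in Krt-low cells. The keratins Krt7 and Krt19 are among these markers. The 12 EPI markers summed to 231 to 544 CPM in Krt-high cells and 946 to 1712 CPM in Krt-low cells, and Sox2 was listed at 0 throughout. Krt-high cells thus had more of the TE marker counts and Krt-low cells more of those of the ICM lineages. Among markers of other cells, 5 oviduct genes, Epcam among them, summed to 840 to 1558 CPM in Krt-high and 135 to 249 CPM in Krt-low cells (879 CPM in replicate 1 without the barcodes) with Krt5 listed at 0, and 9 cumulus or granulosa genes to 83.6 to 189 CPM in Krt-high and 231 to 410 CPM in Krt-low cells (132 CPM in replicate 1 without the barcodes) with Inha, Inhba and Foxl2 at 0. The part of these genes in the results was not tested. Of 8 blood genes, 6 were listed at 0, including every globin gene, and 6 fibroblast genes summed to at most 1.99 CPM.

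Between the fatty acid binding proteins, the Krt-high cells held mostly Fabp3 and the Krt-low cells mostly Fabp5. Fabp3, the form abundant in heart and muscle in adult animals, had 1216, 318 and 1999 CPM in Krt-high cells of replicates 1 to 3, against 171, 13.5 and 84.9 CPM in Krt-low cells. Without barcodes 33 to 64, replicate 1 had 1441 CPM in Krt-high and 78.4 CPM in Krt-low cells. Each Krt-high value lay above each Krt-low value on either count. This is a log2 fold change of 3.93 ± 0.65 (SE, n = 3 libraries) with all cells and 4.41 ± 0.15 without those barcodes. Cells of the middle part had 153, 113 and 908 CPM, so in replicates 2 and 3 the levels were ordered as the keratins were. In single Krt-high cells the median was 1020, 281 and 1810 CPM, in single Krt-low cells 66.5, 10.8 and 53.9 CPM.

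Fabp5, known from skin and many proliferating tissues, went the other way. Krt-high cells had 222, 26.6 and 243 CPM, and Krt-low cells 202, 163 and 707 CPM. Replicate 1 without the barcodes had 180.0 CPM in Krt-high and 561 CPM in Krt-low cells, and then all 3 libraries had less Fabp5 in their Krt-high cells. The groups still overlapped across libraries, because the Krt-high cells of replicate 3 had more than the Krt-low cells of replicate 2. Fabp5 had a log2 fold change of -1.41 ± 0.66 with all cells and -1.95 ± 0.25 without the barcodes (SE, n = 3 libraries).

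Their counts were also set against each other as a share. Fabp3 made up 84.6%, 92.3% and 89.2% of the Fabp3+Fabp5 counts in Krt-high cells and 45.9%, 7.67% and 10.7% in Krt-low cells. In replicate 1 without barcodes 33 to 64 the shares were 88.9% in Krt-high and 12.3% in Krt-low cells. The mean difference was 67.3 ± 24.9 percentage points with all cells and 79.9 ± 4.19 without the barcodes (SD, n = 3 libraries). Middle cells had 25.1%, 70.2% and 62.8%, or 62.1% in replicate 1 without the barcodes. Cell by cell, among those with at least 10 counts of the pair, Fabp3 held the majority in 26 of 26, 17 of 20 and 25 of 26 Krt-high cells. In Krt-low cells Fabp3 held the majority in 11 of 22, 0 of 17 and 4 of 23. Without barcodes 33 to 64 this was 17 of 17 Krt-high and 0 of 18 Krt-low cells of replicate 1. The middle cells of replicate 2 divided into 12 with more Fabp3 and 4 with more Fabp5, and those of replicate 3 into 12 and 12.

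**Figure D1:**
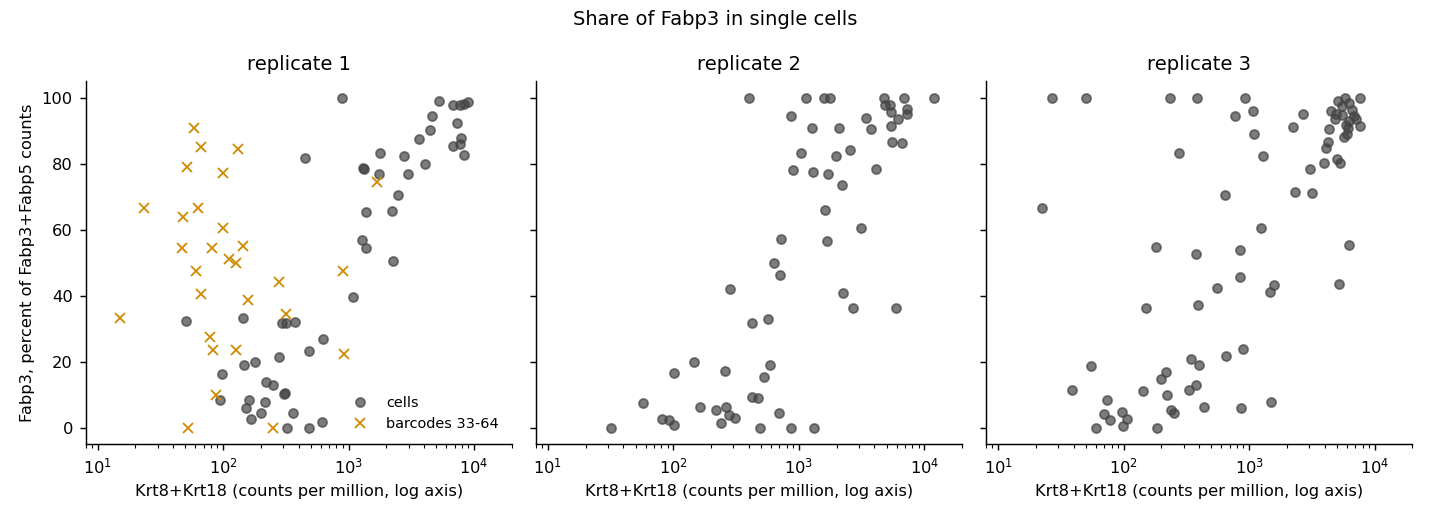
Fabp3 as a percent of the Fabp3+Fabp5 counts of a cell (y axis) against its Krt8+Krt18 level in CPM (x axis, log scale), one panel per library, each point a cell with a count of either gene. Orange crosses are barcodes 33 to 64 of replicate 1. Cells above the Krt-high bounds of 1285, 2235 and 3982 CPM sit mostly near the top, and Krt-low cells mostly near the bottom except for the crosses, which are spread widely.

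Within a group of cells the Fabp genes did not trade off in one way. Across Krt-high cells the Spearman correlation of Fabp3 and Fabp5 was -0.29, -0.31 and 0.19 in replicates 1 to 3, and across Krt-low cells 0.72, -0.10 and 0.04, with -0.28 in replicate 1 without the barcodes. These correlations share depth per cell and are a description. Per kilobase of the longest protein-coding transcript, and without those barcodes, Fabp3 averaged 1522 CPM per kb in Krt-high cells and 71.6 CPM per kb in Krt-low cells, and Fabp5 152 and 483 CPM per kb. Of the other 8 genes of the family, Fabp2, Fabp7 and Pmp2 were listed at 0, and Fabp1 and Fabp4 averaged under 1 CPM in both groups. Fabp6 averaged 1.15 CPM in Krt-high and 0.168 CPM in Krt-low cells, and Fabp9 1.12 and 2.25 CPM, without the barcodes (1.24 and 1.03 CPM for Fabp9 with all cells). Fabp12 averaged 9.56 CPM in Krt-high and 10.0 CPM in Krt-low cells without them, against 11.2 and 51.5 CPM with them.

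Fabp3 lies on chromosome 4 (mm10 130308595 to 130315463, plus strand) in 4 exons, and Fabp5 on chromosome 3 (10012548 to 10016607, plus strand). The last 81 bases of Fabp3 are shared with the 3' end of Zcchc17 on the other strand, and reads there cannot be told apart if the counting ignored strand, which is not stated. Zcchc17 did not have the pattern of Fabp3, with 184, 51.3 and 111 CPM in Krt-high cells and 197, 55.9 and 207 CPM in Krt-low cells without the barcodes. Near copies of both genes exist (Fabp3-ps1 and Fabp5l2), and how the counting divided reads between copies is not stated. Transcript length also bears on levels between libraries. Genes with a transcript under 1000 bases had, by their median, 1.98 less on the log2 scale in replicate 2 than in the mean of replicates 1 and 3, and those of 2000 to under 4000 bases 0.51 more. Fabp3 has 823 and Fabp5 987 bases, and both were lowest in replicate 2. Fold changes were fitted within libraries, while statements on groups that overlap or not set levels of different libraries side by side and carry this difference.

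The 3 promoters below belong to the genes whose Krt-high and Krt-low libraries did not overlap with or without barcodes 33 to 64, namely Fabp3, Acsl6 and Mboat1. They are RefSeq sequences of build GRCm38.p6 from chr4:130308488-130308594, chr11:54303574-54303797 and chr13:30136240-30136488, all on the plus strand, and stop before the first annotated exon base.
Fabp3: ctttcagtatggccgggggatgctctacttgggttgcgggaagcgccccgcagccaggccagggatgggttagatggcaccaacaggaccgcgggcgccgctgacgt
Acsl6: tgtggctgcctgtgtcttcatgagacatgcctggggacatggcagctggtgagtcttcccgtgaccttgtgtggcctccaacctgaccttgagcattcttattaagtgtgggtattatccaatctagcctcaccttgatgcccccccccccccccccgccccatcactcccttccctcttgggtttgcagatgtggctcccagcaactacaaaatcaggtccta
Mboat1: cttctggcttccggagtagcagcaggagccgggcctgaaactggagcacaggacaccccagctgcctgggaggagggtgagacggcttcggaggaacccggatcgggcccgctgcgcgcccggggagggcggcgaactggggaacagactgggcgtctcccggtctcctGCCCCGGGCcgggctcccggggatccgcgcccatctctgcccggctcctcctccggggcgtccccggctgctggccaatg
Capitals mark a match to the TFAP2 motif GCCNNNGGC, 81 bases before the RefSeq start of Mboat1. Both strands of the 250 bases before each start were searched for this motif, for the TEAD motif GGAATG, the GATA motif AGATAA and the DR1 nuclear receptor motif (direct repeats with a 1-base spacer), with overlaps between motifs allowed. TEAD, TFAP2 and GATA factors act in TE specification, and PPAR-RXR pairs bind DR1. Of 32851 mouse promoters of this length, 13.7% held the TFAP2, 12.6% the TEAD, 9.99% the GATA and 0.0335% the DR1 motif. Fabp3 and the 3 starts of Acsl6 held none of these letters in this window. Of the 8 genes found in the promoter table, Acsl3, Acsl4, Mboat1, Plin2, Apoe and Cpt1a had the TFAP2 letters at a start, and Apoe and Cpt1a those of TEAD. A match is no evidence of binding.

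Among the acyl-CoA synthetases, Acsl6 stood out in Krt-high cells. This enzyme, known for handling the polyunsaturated fatty acid DHA in brain, had 30.5, 146 and 56.2 CPM in Krt-high cells, against 0.243, 23.3 and 1.28 CPM in Krt-low cells. Replicate 1 without barcodes 33 to 64 had 38.8 CPM in Krt-high and 0.819 CPM in Krt-low cells. No Krt-low value reached a Krt-high value. The Krt-low values rest on 3, 231 and 18 counts, and 223 of the 231 counts in replicate 2 came from 1 cell at 181 CPM. Without that cell the Krt-low value of replicate 2 was 0.923 CPM. Acsl6 had a log2 fold change of 4.86 ± 1.01 with all cells and 4.30 ± 0.66 without the barcodes (SE, n = 3 libraries). The median Krt-high cell had 22.0, 106 and 33.7 CPM of Acsl6, the median Krt-low cell 0 CPM in each library, and the highest Krt-high cell 1340 CPM, in replicate 3.

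Acsl4, which prefers arachidonic acid, pointed the other way with all cells and not clearly without the barcodes. Krt-high cells had 13.1, 26.3 and 4.98 CPM, and Krt-low cells 51.3, 38.6 and 13.9 CPM. In replicate 1 without the barcodes Krt-high cells had 15.2 CPM and Krt-low cells 10.2 CPM, which turned the direction in that library. Of the 632 Acsl4 counts in the Krt-low cells of replicate 1, 433 lay in 1 cell. For Acsl4 the log2 fold change was -1.41 ± 0.67 with all cells and -0.54 ± 0.56 without the barcodes (SE, n = 3 libraries).

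Acsl3, the synthetase found on nascent lipid droplets, differed less. It had 10.9, 27.8 and 17.1 CPM in Krt-high cells and 4.62, 9.70 and 11.9 CPM in Krt-low cells, with 13.3 and 8.81 CPM in replicate 1 without the barcodes. Each library had more in its Krt-high cells, but the middle cells had the most in each, at 17.0, 40.9 and 23.1 CPM. Acsl3 had a log2 fold change of 1.02 ± 0.73 with all cells and 0.85 ± 0.53 without the barcodes (SE, n = 3 libraries). Counts were few and uneven, as 114 of the 278 Acsl3 counts in the Krt-high cells of replicate 2 lay in 1 cell.

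As a share of the counts of Acsl1, Acsl3, Acsl4, Acsl5 and Acsl6, Acsl6 took 47.5%, 62.0% and 57.9% in Krt-high cells and 0.404%, 16.0% and 3.14% in Krt-low cells. Replicate 1 without the barcodes had 50.4% in Krt-high and 2.55% in Krt-low cells. The mean difference was 49.3 ± 4.77 percentage points with all cells and 49.6 ± 4.61 without the barcodes (SD, n = 3 libraries). With all cells Acsl4 led in Krt-low cells of replicate 1, at 85.2%, against 26.4% and 34.1% in replicates 2 and 3, and Acsl1, Acsl3 and Acsl5 had 4.58%, 7.68% and 2.16% there. Without the barcodes Acsl4 had 31.8%, 26.4% and 34.1% in Krt-low cells, Acsl3 27.4%, 6.64% and 29.3%, Acsl5 17.2%, 29.1% and 20.4%, and Acsl1 21.0%, 21.9% and 13.1%. In Krt-high cells Acsl5 then had 2.16%, 5.83% and 5.80%. These shares are of counts and are not corrected for length. Per kilobase, and without the barcodes, Acsl6 averaged 13.8 CPM per kb in Krt-high and 1.46 CPM per kb in Krt-low cells, Acsl3 4.91 and 2.57, and Acsl4 2.93 and 3.96. The related Acsbg1, which also activates long-chain fatty acids, averaged 32.9 CPM in Krt-high and 49.7 CPM in Krt-low cells, and Acsbg2 7.31 and 6.09 CPM, without the barcodes. With all cells Acsbg2 averaged 6.96 CPM in Krt-high and 35.9 CPM in Krt-low cells, the opposite direction.

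**Figure D2:**
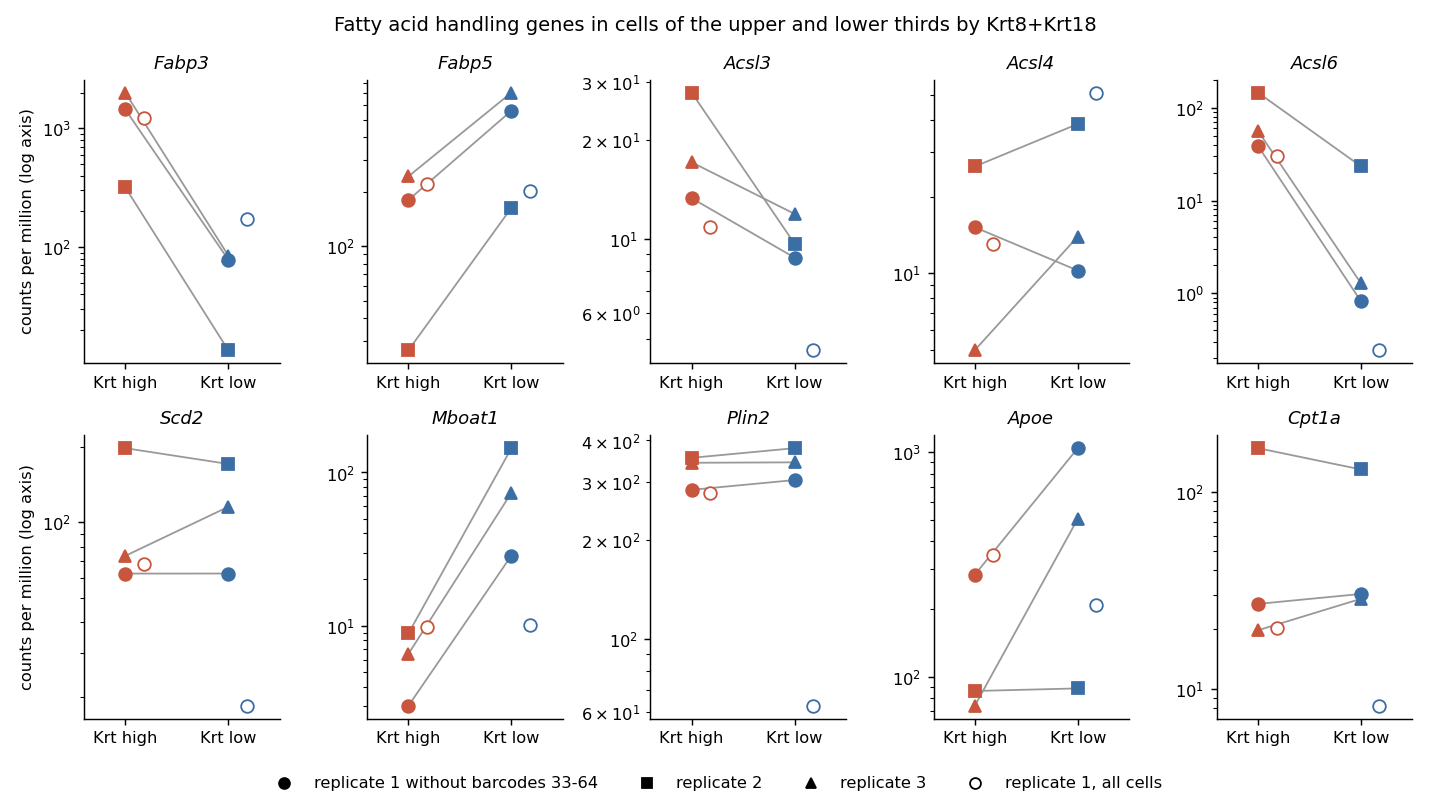
Levels of the 10 genes in CPM (y axis, log scale, own range per panel) in Krt-high cells (red) and Krt-low cells (blue) of each library. Circles are replicate 1 without barcodes 33 to 64, squares replicate 2, triangles replicate 3, grey lines join a library, and open circles are replicate 1 with all cells. Fabp3 and Acsl6 slope down and Fabp5 and Mboat1 slope up in each library, and Plin2 lies close together except for the open circle at 62.5 CPM.

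Counted by libraries, Fabp3, Acsl6 and Mboat1 were the 3 of 10 genes whose groups did not overlap with all cells. Among all 12154 genes tested, 12.2% had groups that did not overlap, 6.61% with Krt-high cells higher and 5.57% with them lower. Without barcodes 33 to 64 there were 4 of the 10 genes, with Acsl3 added, and 11.9% of 11796 genes, 7.05% with Krt-high cells higher and 4.87% with them lower. The 10 genes were chosen from this contrast, so nothing is read from these shares.

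Of the 10 genes, Mboat1 had the lowest log2 fold change. The enzyme, known as LPEAT1, puts acyl chains back onto lysophosphatidylethanolamine and lysophosphatidylserine. Krt-high cells had 9.84, 8.89 and 6.54 CPM and Krt-low cells 10.1, 144 and 73.7 CPM. Replicate 1 without the barcodes had 2.997 CPM in Krt-high and 28.7 CPM in Krt-low cells. The 10.1 CPM of all Krt-low cells of replicate 1 lay close to its Krt-high value, and the other libraries lay far apart. That change was -2.71 ± 0.96 with all cells and -3.64 ± 0.37 without the barcodes (SE, n = 3 libraries). In the Krt-high cells of replicate 2, 84 of 89 counts came from 1 cell, and without it the value was 0.533 CPM.

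Other genes of the MBOAT family follow. Mboat2 averaged 84.1 CPM in Krt-high and 135 CPM in Krt-low cells without the barcodes, and Mboat7, which acts on phosphatidylinositol, 26.3 and 15.6 CPM. Lpcat3 averaged 292 CPM in Krt-high and 294 CPM in Krt-low cells, and Mboat4 0.311 and 1.16 CPM. With all cells Mboat7 turned, with 25.4 CPM in Krt-high and 40.8 CPM in Krt-low cells, as did Lpcat3, with 295 CPM in Krt-high and 201 CPM in Krt-low cells, and Mboat4 averaged 0.212 and 8.80 CPM. Per kilobase, Lpcat3 had 128 CPM per kb in Krt-high and 129 CPM per kb in Krt-low cells, and Mboat1 2.11 and 28.3 CPM per kb. Lpcat3, which restores phosphatidylcholine, was thus the higher of these genes in both groups.

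**Figure D3:**
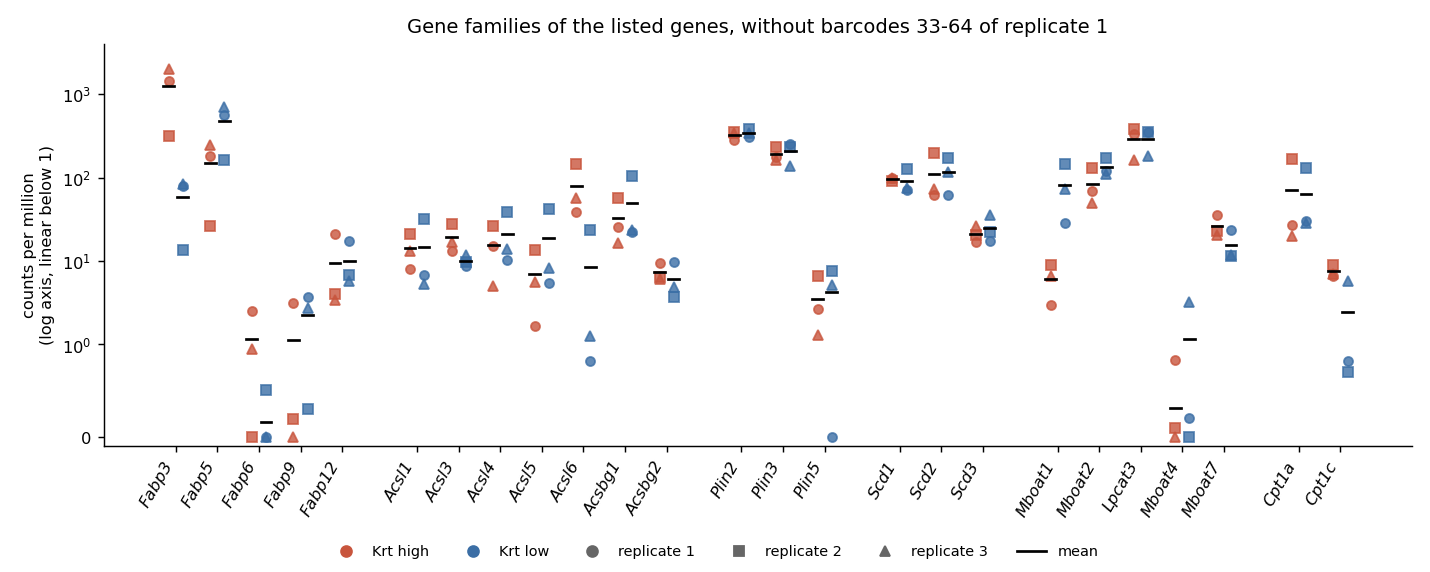
CPM of each family gene with a mean of at least 1 CPM in either group (y axis, log scale, linear below 1), without barcodes 33 to 64 of replicate 1. Red is Krt-high and blue Krt-low, circles, squares and triangles are replicates 1 to 3, and black bars are means. Fabp3 and Fabp5 are set in opposite order, and Acsl6 and Mboat1 are the members of their families with the widest gaps.

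Summed levels of the droplet coat gene Plin2 lay close together in both groups once the barcodes were left out. It had 276, 354 and 342 CPM in Krt-high cells and 62.5, 379 and 343 CPM in Krt-low cells. Replicate 1 without barcodes 33 to 64 had 283 CPM in Krt-high and 303 CPM in Krt-low cells. Plin2 had a log2 fold change of 0.58 ± 0.62 with all cells and -0.10 ± 0.15 without the barcodes (SE, n = 3 libraries), and the means without them were 327 ± 38.0 and 342 ± 37.9 CPM (SD, n = 3). Plin3, a perilipin that also coats small droplets, averaged 190 ± 36.4 CPM in Krt-high and 207 ± 61.5 CPM in Krt-low cells without the barcodes, and 192 ± 35.5 and 149 ± 77.8 CPM with all cells. Plin2 took 61.6%, 60.5% and 67.8% of Plin2+Plin3 counts in Krt-high cells and 54.6%, 62.0% and 71.5% in Krt-low cells without the barcodes. With all cells replicate 1 had 60.3% in Krt-high and 44.6% in Krt-low cells. Plin5 averaged 3.56 CPM in Krt-high and 4.29 CPM in Krt-low cells, Plin1 under 1 CPM in both, and Plin4 was listed at 0. Per kilobase Plin2 had 173 CPM per kb in Krt-high and 181 CPM per kb in Krt-low cells, against 52.1 and 56.8 CPM per kb for Plin3.

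Scd2, which puts a double bond into saturated acyl-CoA, had 68.4, 198 and 73.5 CPM in Krt-high cells and 18.5, 171 and 115 CPM in Krt-low cells. Without the barcodes replicate 1 had 62.4 CPM in Krt-high and 62.5 CPM in Krt-low cells. Its log2 fold change was 0.39 ± 0.65 with all cells and -0.18 ± 0.24 without them (SE, n = 3 libraries). Scd1 averaged 96.8 CPM in Krt-high and 90.3 CPM in Krt-low cells without the barcodes, and Scd3 21.2 and 25.2 CPM. Scd2 took 34.8%, 64% and 36.9% of the counts of Scd1, Scd2 and Scd3 in Krt-high cells and 41.4%, 53.6% and 51.2% in Krt-low cells without the barcodes. With all cells Scd2 took 38.0% in Krt-high and 18.2% in Krt-low cells of replicate 1, which turned the direction in that library, and Scd3 took 70.2% in those Krt-low cells. In the Krt-low cells of replicate 2, 1 cell held 830 of the 1694 counts of Scd2.

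Cpt1a, which starts the import of fatty acids into mitochondria, had 20.3, 167 and 19.8 CPM in Krt-high cells and 8.19, 130 and 28.6 CPM in Krt-low cells. Replicate 1 without the barcodes had 27.0 CPM in Krt-high and 30.3 CPM in Krt-low cells. For Cpt1a the log2 fold change was 0.30 ± 0.63 with all cells and -0.14 ± 0.28 without them (SE, n = 3 libraries). Replicate 2 had 136 CPM over all its cells, against 15.9 and 25.2 CPM in replicates 1 and 3. Cpt1c averaged 7.55 CPM in Krt-high and 2.45 CPM in Krt-low cells without the barcodes, and Cpt1b under 1 CPM in both.

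Apoe, the secreted lipoprotein component, varied between parts of a library as well as between the groups. Krt-high cells had 348, 86.2 and 74.1 CPM and Krt-low cells 209, 88.5 and 504 CPM. Replicate 1 without the barcodes had 284 CPM in Krt-high and 1039 CPM in Krt-low cells. Apoe had a log2 fold change of -0.70 ± 0.74 with all cells and -1.61 ± 0.42 without the barcodes (SE, n = 3 libraries). In replicate 2, 506 of the 876 counts of the Krt-low cells came from 1 cell. Over all cells of barcodes 1 to 32, 33 to 64 and 65 to 96, Apoe stood at 490, 82.6 and 927 CPM in replicate 1, 108, 7.73 and 124 CPM in replicate 2, and 101, 18.9 and 794 CPM in replicate 3. Barcodes 33 to 64 were lowest in each library. What distinguishes these barcodes at the bench is not given in the labels.

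Because Krt-high cells were unevenly spread over the barcodes, with none among 65 to 96 of replicate 3, the groups were also compared inside sets of 32 barcodes. Of the 9 sets, 7 held at least 2 cells of each group. Fabp3 and Acsl6 were higher in Krt-high cells in 7 of 7 sets, and Fabp5, Mboat1 and Plin2 were lower in 7 of 7. For Plin2 the gap ran from 162 CPM in Krt-high and 163 CPM in Krt-low cells to 270 CPM in Krt-high and 536 CPM in Krt-low cells. Acsl3 was higher in Krt-high cells in 6 of 7 sets and Apoe in 2 of 7. Acsl4, Scd2 and Cpt1a were higher in 3, 4 and 3 of 7. The sets are parts of 3 libraries with as few as 2 cells in a group, so they are not replicates.

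**Figure D4:**
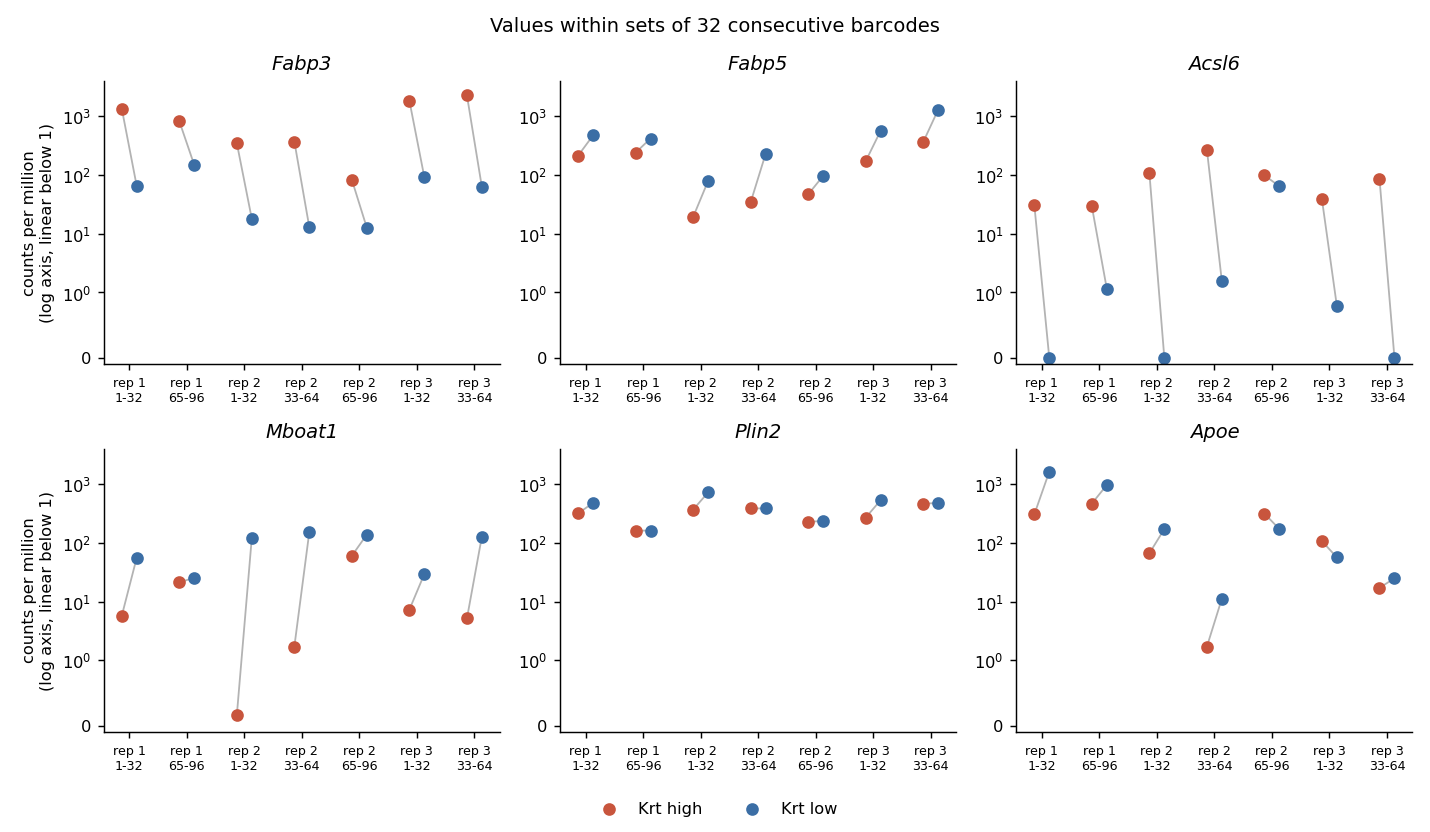
CPM (y axis, log scale, linear below 1) of 6 genes in Krt-high cells (red) and Krt-low cells (blue) inside the 7 sets of 32 consecutive barcodes with at least 2 cells of each group. Fabp3 and Acsl6 have the red point above the blue in each set, Fabp5 and Mboat1 below, and Apoe shifts with the set.

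To place the 10 genes among the rest of lipid metabolism, 165 other genes in 8 lists were read from the fit across all genes. With all cells, edgeR's quasi-likelihood test called 19 of 12154 genes at a Benjamini-Hochberg adjusted p under 0.05, or 0.156%, with 17 higher (0.14%) and 2 lower (0.0165%) in Krt-high cells, while 10.3% had an unadjusted p under 0.05. With DESeq2 size factors in place of TMM it called 2, both higher. Of the 128 list genes tested it called 0, with 17 at an unadjusted p under 0.05, and DESeq2 called 12. Without barcodes 33 to 64 edgeR called 649 of 11796 genes, or 5.5%, with 390 higher (3.31%) and 259 lower (2.2%). It then called 6 of 130 list genes, with 5 higher and 1 lower in Krt-high cells. The log2 fold changes of the list genes had a median of 0.17 with all cells and -0.01 without the barcodes, against -0.01 and 0.00 over all genes tested.

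Elovl1, which elongates very long saturated fatty acids, rose in Krt-high cells without the barcodes. It had 83.4, 71.8 and 103 CPM there and 21.5, 24.96 and 20.6 CPM in Krt-low cells, a log2 fold change of 1.91 ± 0.32 (SE, n = 3; edgeR adjusted p = 0.0108, and 0.241 with all cells). The 3 values of each group lay close together. Hadh, the short-chain 3-hydroxyacyl-CoA dehydrogenase of beta oxidation, had 361, 985 and 755 CPM in Krt-high and 201, 606 and 365 CPM in Krt-low cells, a log2 fold change of 0.84 ± 0.15 (edgeR adjusted p = 0.0143, and 0.512 with all cells). Ppargc1b, a coactivator of mitochondrial and lipid genes, rose by 1.58 ± 0.35 on the log2 scale (edgeR adjusted p = 0.0377, and 0.27 with all cells). Apoa1, the main protein of HDL, rose by 1.54 ± 0.37 (edgeR adjusted p = 0.0495, and 0.301 with all cells).

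Etfdh, which passes electrons from beta oxidation to ubiquinone, rose by 1.21 ± 0.29 on the log2 scale without the barcodes (edgeR adjusted p = 0.0478). With all cells its log2 fold change was -0.07 ± 1.03 (adjusted p = 0.989), since the Krt-low cells of replicate 1 then had 586 CPM, against 26.6 CPM without the barcodes. Angptl4, a secreted inhibitor of lipoprotein lipase, was the gene that fell, by 2.35 ± 0.53 on the log2 scale (edgeR adjusted p = 0.0399, and 0.544 with all cells). It had 6.83, 2.498 and 4.53 CPM in Krt-high and 34.2, 10.7 and 26.4 CPM in Krt-low cells. Its level lies below the bound set for naming genes, and it is named here after its values were seen.

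By list and without the barcodes, 2 of 29 tested genes of the carnitine shuttle and beta oxidation rose (Hadh and Etfdh), with a median log2 fold change of 0.19. Of 16 genes of synthesis, desaturation and elongation 1 rose (Elovl1), with a median of -0.26. Of 14 apolipoprotein and receptor genes 1 rose (Apoa1), with a median of -0.42, and of 15 regulators 1 rose and 1 fell, with a median of -0.01. No gene passed among 11 of uptake and binding (median -0.03), 14 of activation and thioesterases (0.20), 12 of lipid droplet and lipolysis (0.20) and 19 of glycerolipid and sterol acyltransfer (-0.29), where edgeR gave 1, 1, 3 and 8 genes at an unadjusted p under 0.05, against 19.4% of all genes tested without the barcodes. DESeq2, run with all cells, called Cidec in the droplet list and Mogat1 and Soat2 in the acyltransfer list.

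**Figure D5:**
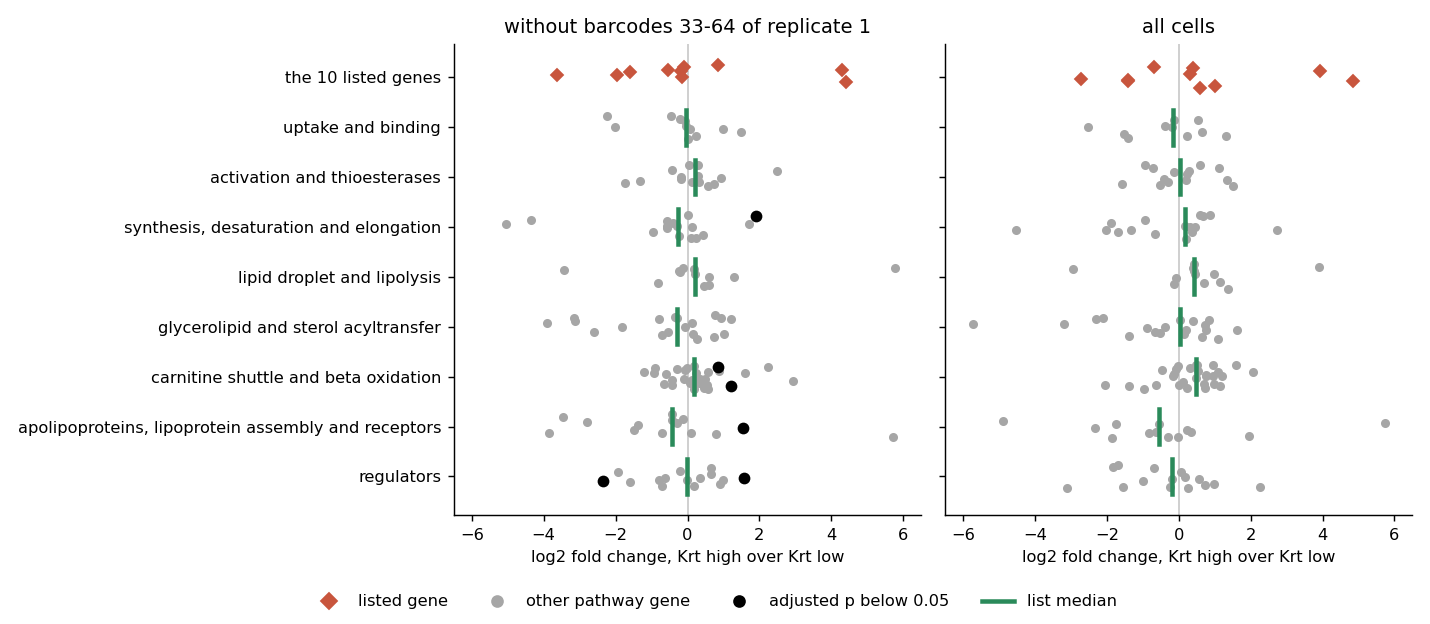
Log2 fold change of Krt-high over Krt-low cells (x axis) for the 10 genes (red diamonds) and for each tested gene of 8 lipid lists (grey points, green bars for list medians), without barcodes 33 to 64 of replicate 1 (left) and with all cells (right). Black points have an edgeR adjusted p under 0.05, 6 on the left and 0 on the right. List medians lie between -0.54 and 0.48 in both panels, and the single genes Fabp3 and Acsl6 at or above 3.93. Single list genes lie as far out, among them Vldlr at 5.72 (left) and 5.75 (right). Fads1 lies at -5.06 (left) and -4.52 (right), and edgeR called neither Vldlr nor Fads1 in the fits of these panels. Both were called by edgeR without replicate 1 and by DESeq2's Wald test with all cells.

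Of the 10 genes, 9 could also be tested in another contrast, within the Krt-low cells. These are among the cells the genes were chosen from, but the split into PrE-leaning and EPI-leaning cells was not used to choose them. Krt-low cells of each library were split into 2 equal parts by their mean log2 level of PrE markers minus that of EPI markers. PrE-leaning cells had 415, 2272 and 907 CPM of PrE markers, against 237, 1091 and 618 CPM in EPI-leaning cells, so the parts differed in degree. EdgeR called 0 of 10766 genes, or 0%, with 406 (3.77%) at an unadjusted p under 0.05, and DESeq2 called 98. Without barcodes 33 to 64 it called 0 of 10042, with 326 (3.25%) at an unadjusted p under 0.05. None of the 9 listed genes tested passed, with edgeR adjusted p from 0.989 to 0.999. Fabp5 had 199, 237 and 892 CPM in PrE-leaning cells and 184, 104 and 583 CPM in EPI-leaning cells, higher in 3 of 3 libraries, at a log2 fold change of 0.75 ± 0.35 (edgeR adjusted p = 0.989). Cpt1a had 3.02, 78.9 and 10.8 CPM in PrE-leaning and 12.5, 154 and 40.5 CPM in EPI-leaning cells, lower in 3 of 3, at -1.52 ± 0.60 (edgeR adjusted p = 0.989). Apoe was lower in 3 of 3 as well, with 79.8, 31.0 and 362 CPM in PrE-leaning and 230.5, 47.6 and 598 CPM in EPI-leaning cells, at -0.85 ± 0.40 (edgeR adjusted p = 0.989). So was Acsl3, with 2.69, 2.48 and 10.5 CPM in PrE-leaning and 6.65, 14.8 and 12.9 CPM in EPI-leaning cells. Its log2 fold change was -1.25 ± 1.04 (edgeR adjusted p = 0.989), and -1.28 ± 1.08 without the barcodes (0.999). In replicate 1 without them, PrE-leaning cells had 5.13 CPM of Acsl3 and EPI-leaning cells 13.5 CPM. Without the barcodes, replicate 1 had 681 CPM of Fabp5 in PrE-leaning and 409 CPM in EPI-leaning cells, 21.6 and 41.3 CPM of Cpt1a, and 1036 and 1043 CPM of Apoe. The log2 fold changes were then 0.96 ± 0.24 for Fabp5, -1.15 ± 0.48 for Cpt1a and -0.33 ± 0.24 for Apoe, each at an edgeR adjusted p of 0.999. Fabp3, with 130, 18.6 and 90.6 CPM in PrE-leaning and 215, 10.5 and 81.1 CPM in EPI-leaning cells, was higher in 2 of 3 libraries (edgeR adjusted p = 0.992). Replicate 1 without the barcodes had 82.8 CPM of Fabp3 in PrE-leaning and 72.9 CPM in EPI-leaning cells, which made it higher in 3 of 3, at 0.49 ± 0.44 (edgeR adjusted p = 0.999). Acsl6 was below the filter, and 230 of its 231 counts in replicate 2 lay in EPI-leaning cells, which include the single cell named above.

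Genes that tracked each member across cells were read from 5866 genes with a count in at least 50% of the cells of each library, without barcodes 33 to 64. The measure was the Spearman correlation of log2(CPM + 1) over the 54, 64 and 78 cells, averaged over the 3 libraries. Cells share library and depth, and the values are a description. The members were proposed above all from cells high and low in Krt8 and Krt18. Their correlations with these keratins, including Krt18 as a partner of Fabp3, partly restate that choice and are no separate evidence. Fabp3 ran closest with Krt18 (0.83), the oocyte and early embryo gene Nlrp4e (0.79) and the endocytic adaptor gene Dab2 (0.79). Acsl6 ran closest with the lysosomal activator gene Gm2a (0.67), the tetraspanin gene Tspan8 (0.65) and Fabp3 itself (0.65). Within Krt-high cells alone the correlation of Fabp3 and Acsl6 was 0.43, 0.48 and 0.26 in replicates 1 to 3. Within Krt-low cells it was 0.11, 0.33 and 0.01. Fabp5 ran with Mgarp (0.62), the securin gene Pttg1 (0.57) and the ICM marker Spic (0.55). Against Krt8+Krt18 itself, the correlation of Fabp3 was 0.84, 0.77 and 0.83 in replicates 1 to 3, and that of Acsl6 0.71, 0.56 and 0.67. That of Fabp5 was -0.66, -0.61 and -0.22, and that of Mboat1 -0.45, -0.47 and -0.28. With all cells, replicate 1 had 0.66 for Fabp3 and 0.64 for Acsl6. Fabp5 then had 0.08 and Mboat1 -0.01 in that library, so their negative values were not seen there.

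The remaining genes had weaker partners. Mboat1 ran with Ppm1a (0.53), Sat1 (0.50) and Pmm1 (0.49). Plin2 ran with the redox gene Glrx (0.54), Ahcy (0.52) and Agtrap (0.51). Its correlation with Krt8+Krt18 was between -0.03 and 0.08 without the barcodes, and 0.48 in replicate 1 with all cells. Apoe ran with the ferritin gene Fth1 (0.55), Creg1 (0.53) and Utf1 (0.52), one of the EPI markers. For Acsl3, Acsl4, Scd2 and Cpt1a no gene exceeded a mean of 0.40, the highest being Gsk3b (0.31), Ypel5 (0.38), Srrm2 (0.40) and Cnbd2 (0.37) in that order.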

How the data were processed

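The deposited values are counts per gene symbol and cell barcode, whole numbers that are not normalized. Per the submitters' processing notes, CASAVA 1.8, HISAT2, HTSeq and build mm10 were used; the sources used here do not give the annotation, the strand setting or any collapsing by molecular identifier, so values are called counts. The members and gene lists were chosen with earlier results of these data known. CPM scale counts to the total over all genes. Summed counts were filtered with filterByExpr, scaled by TMM and fitted with edgeR 4.0.16 (quasi-likelihood) with the library as a block, in R 4.3.3, at a Benjamini-Hochberg threshold of 0.05; DESeq2 1.42.0 was an alternative. Both groups come from the same libraries, which pairs them. Krt8, Krt18 and, in the second contrast, PrE and EPI markers were left out of gene counts. The fit was checked on simulated data. No doublet caller was run on hand-picked cells. P-values measure only the spread between 3 libraries, which may be technical, and not the drawing of groups. In the 3 libraries 46 barcode numbers were retained in common. Genes were named by a fixed rule: the 10 genes, family genes of at least 1 CPM, up to 3 called genes per list and direction at a mean log2 CPM of 4 or more, and 3 partners per gene. Genes named outside this rule include Angptl4, Vldlr, Fads1, Cidec, Mogat1, Soat2 and family genes under 1 CPM. Lengths and positions are from GENCODE M21 on mm10.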

Additional observations from a re-analysis of the deposited data

How the results depend on the processing

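The number of genes called between Krt-high and Krt-low cells, 19 as designed, depended on the processing. It was 883 with DESeq2's Wald test, 2 with DESeq2 size factors in edgeR, 165 without a filter on low counts, 107 without ribosomal protein genes, 90 with upper and lower of 2 parts, 0 with those of 4 parts (1281 at an unadjusted p under 0.05 by edgeR), 61 with cells thinned to 20000 counts, 225 without cells above 2.5 times the library median, 0 at 4000 genes per cell (1237), and 649 without barcodes 33 to 64 of replicate 1. Leaving out 1 replicate gave 17 to 406, with 406 without replicate 1 and 141 without replicate 2. Without the replicate block it was 0 (1261). List genes called, 0 as designed, were 12 with DESeq2, 1 each without the filter (Soat2), with 2 parts (Soat2) and without deep cells (Elovl1), 6 without the barcodes, and 0 to 3 when a replicate was left out. The share of higher calls moved between 31.2% without replicate 2 and 100% with size factors, against 89.5%. The largest shift of the median of all genes was -0.17, without the block.

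The Acsl6 share difference of 49.3 percentage points was 44.4 with 2 parts, 55.7 with 4 parts, 57.2 with thinned cells and 57.0 with cells weighted equally, and 46.6 to 50.9 when a replicate was left out. For Fabp3 the range was 57.2 to 81.5, all within 1 SD of 67.3. That SD was 24.9 percentage points with all cells, against 4.19 without the barcodes, so it is a loose bound. Fabp3 kept its sign in 16 of 16 alternatives (log2 fold change 3.12 to 4.56), Acsl6 in 16 of 16 (3.25 to 8.99), Fabp5 in 16 of 16 (-2.06 to -0.77) and Mboat1 in 15 of 15 (-3.75 to -1.67). The signs of Plin2 and Cpt1a turned in 3 of 16, of Scd2 in 2 and of Apoe in 1.

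Between PrE-leaning and EPI-leaning cells, 0 genes as designed became 98 with DESeq2, 22 without the filter and 18 without replicate 3 (0 to 18 over the replicates); without the replicate block it stayed at 0. Signs turned there for genes that did not pass. Fabp3 had -0.20 without the block and -0.14 to 0.50 when a replicate was left out. Acsl4 had -0.44 to 1.62 when a replicate was left out, -0.51 with 3 parts and -0.68 without the barcodes. Scd2 had -1.09 to 0.05 when a replicate was left out and 0.21 among the lower of 2 parts by keratin, where Apoe had 0.02. Mboat1 had -0.02 without the filter, -0.06 without the block, -0.08 thinned, -0.24 to 0.40 when a replicate was left out (-0.15 without replicate 2), -0.09 among the lower of 2 parts and -0.04 without the barcodes. Leaving out the barcodes in this contrast and the sets of 32 barcodes were chosen after seeing the data. Causes were not tested.

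In Krt-low cells, single cells held most counts of Acsl4 in replicate 1 and of Acsl6 in replicate 2. Whether counts are reads or molecules is not stated.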

Other observations

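The 29 cells of barcodes 33 to 64 of replicate 1 differed in paralog levels from the other 54 cells of the library. They include 22 of its 27 Krt-low and 1 of its 27 Krt-high cells. Keratin level thus differs between these cells and the others too, and its part in the values was not tested. The stearoyl-CoA desaturase Scd3 had 117 CPM in them, against 17.7 CPM in the other cells, while Scd1 had 5.64 and 87.6 CPM and Scd2 13.8 and 76.2 CPM. Acsbg2, known from testis, had 94.0 and 8.02 CPM, Fabp12 124 and 23.0 CPM, Acsl4 44.4 and 12.2 CPM, Mboat7 86.2 and 29.4 CPM and the ghrelin acyltransferase Mboat4 20.6 and 0.612 CPM. On the other side stood Plin2 with 48.7 and 290 CPM, Plin3 with 57.5 and 216 CPM, Lpcat3 with 42.4 and 357 CPM, Apoe with 82.6 and 673 CPM and Acsl6 with 0.705 and 17.7 CPM. Krt-low cells of replicate 1 drawn without these barcodes had 0.819 CPM of Acsl6, close to the value of the block. They had 303 CPM of Plin2 and 1039 CPM of Apoe, which lay far from it. The 44.4 CPM of Acsl4 in the block rest largely on 1 cell with 433 counts, at 426 CPM. Without that cell all Krt-low cells of replicate 1 had 17.6 CPM of Acsl4, against 10.2 CPM in those drawn without the barcodes.

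A count of Acsbg2 was present in 27 of these 29 cells and 38 of the other 54, one of Scd3 in 21 and 29, and one of Mboat4 in 14 and 7. The same barcode numbers had 1.66 and 5.10 CPM of Acsbg2 in replicates 2 and 3. Median genes per cell were 8512 in these cells and 7470 in the others. The sum of 9 oocyte markers was 382 CPM in them, against 97.4 CPM, and that of 12 EPI markers 755 and 1041 CPM. These cells are a part of 1 library with no replicate, so no test was made, and the part of their source in the values was not tested.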
